A study of Homo sapiens with 12 samples.

Results

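The genes described here are 38 genes of ribosome biogenesis and of the nucleolus, chosen by symbol and matched to the Ensembl identifiers of a table of 58302 genes; all 38 were found and all 38 passed the filter on low counts that kept 18035 genes. Their changes were read across 12 RNA-seq libraries in 4 groups of 3. The sensitive groups were NCI-H226 cells, a human mesothelioma line, given either the vehicle DMSO or GNE-7883, an inhibitor of TEAD, the transcription factor through which YAP and TAZ act at the end of the Hippo pathway. The resistant groups were NCI-H226_CL3 cells, derived from NCI-H226 by keeping them in a TEAD inhibitor raised stepwise from 0.25 to 3 µM. They too were given DMSO or GNE-7883. The labels describe the NCI-H226 background as NF2 null, and NF2 is an upstream component of the Hippo pathway. Neither the dose nor the duration of the last incubation is known from the labels, nor whether they were equal in both lines. The resistant groups are 1 derived line, so that what the line and what its selection history brought cannot be told apart. Whether the 3 libraries within a group stem from separate cultures is not stated, so the p-values cover only the spread among these libraries, and part of it may be technical.

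Ribosomes are assembled in the nucleolus, where RNA polymerase I transcribes the repeated ribosomal DNA into a long precursor RNA. Small nucleolar ribonucleoprotein particles (snoRNPs) modify that precursor, and large sets of transient factors cleave, fold and load it with ribosomal proteins to give the small and the large subunit. The genes for these factors tend to be transcribed together and in step with growth, and MYC is a well-known activator of many of them.

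Total counts ran from 31878934 to 46962645 per library. Sensitive DMSO replicate 2 stood apart from the other libraries of its group: over all genes the chi-square per degree of freedom against replicates 1 and 3 was 39.4 and 45.5, against 3.33 between replicates 1 and 3 and 3.51 to 11.3 within the other groups. In that library the 38 genes deviated from their group mean by a median of 0.057 and an SD of 0.144 on the log2 scale, and in the other 11 the SD was 0.0294 to 0.0813. The 8 mesothelial markers were all measured, with summed levels in sensitive cells of 4632 to 5542 CPM under DMSO and 5674 to 5967 CPM under GNE-7883, and in resistant cells of 2190 to 2574 CPM and 2734 to 3073 CPM. CPM here are counts relative to TMM-scaled library totals. The 7 blood markers summed to at most 1.31 CPM in any library, with CD3E at 0 in all of them. CD68 was listed at 0 as well, but so was EIF4A1, a translation factor gene that all cells use. The cause of these zeros was not tested, and the 0 of CD68 cannot be read as absence. EEF1A1, a translation factor gene with many pseudogenes, was listed at 35 to 65.5 CPM on the unscaled library total, against 3130 to 4059 for EEF2. The counting rule is not stated, so the level of a gene with overlaps or many copies, NPM1 and the ribosomal proteins among them, is uncertain beside that of other genes. Of 4 endothelial markers, PECAM1 and CDH5 stayed under 1 CPM as group means, and KDR made up most of the sum, which was 180.2 to 196 CPM in sensitive GNE-7883 and 22.7 to 63.4 CPM in the other groups. The summed level of 5 alveolar and airway markers was at most 1.99 CPM, reached in sensitive GNE-7883.

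Per unit of transcript length, in the authors' RPKM averaged over the 12 libraries, NCL (nucleolin) had the highest level of the 38 genes at 226 RPKM. FBL (fibrillarin) followed at 122.6 RPKM, and then the helicase gene DDX21 at 70.0, DKC1 at 68.5 and NOLC1 at 66.5 RPKM. The place of NPM1 in this order is uncertain, as its level is. The lowest levels were those of WDR12 at 3.66 RPKM, DDX10 at 4.64 RPKM and UTP15 at 6.01 RPKM. NCL and FBL held the first and the second place in all 4 groups, whereas LYAR ranked 25 under DMSO and 33 under GNE-7883 in sensitive cells, and 23 and 28 in resistant cells. The lowest count of any of the 38 genes in any library was 224, for RRS1.

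GNE-7883 against DMSO in sensitive cells asks how the program moved when TEAD was inhibited in the parental line. Of the 38 genes, 36 fell and none rose, where a gene was called at an adjusted p under 0.05 in edgeR's quasi-likelihood test over all 18035 genes. Over all genes tested, 28.4% were called lower, 29.8% higher and 58.1% in either direction. The median log2 fold change of the 38 genes was -0.81, against 0.02 over all genes tested. Of the 36, 30 fell by at least 1.5-fold, a change that 14.3% of all genes tested passed in that direction. Together the 38 genes took 0.462, 0.465 and 0.467% of all counts in the sensitive DMSO libraries and 0.2646, 0.268 and 0.261% in the sensitive GNE-7883 libraries. In 36 genes the DMSO and the GNE-7883 libraries did not overlap, a separation that 29.8% of all genes tested showed in the lower direction. Counts are relative to the other RNA of a library, and in bulk samples fewer cells of a type and less RNA per cell cannot be told apart.

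**Figure D1:**
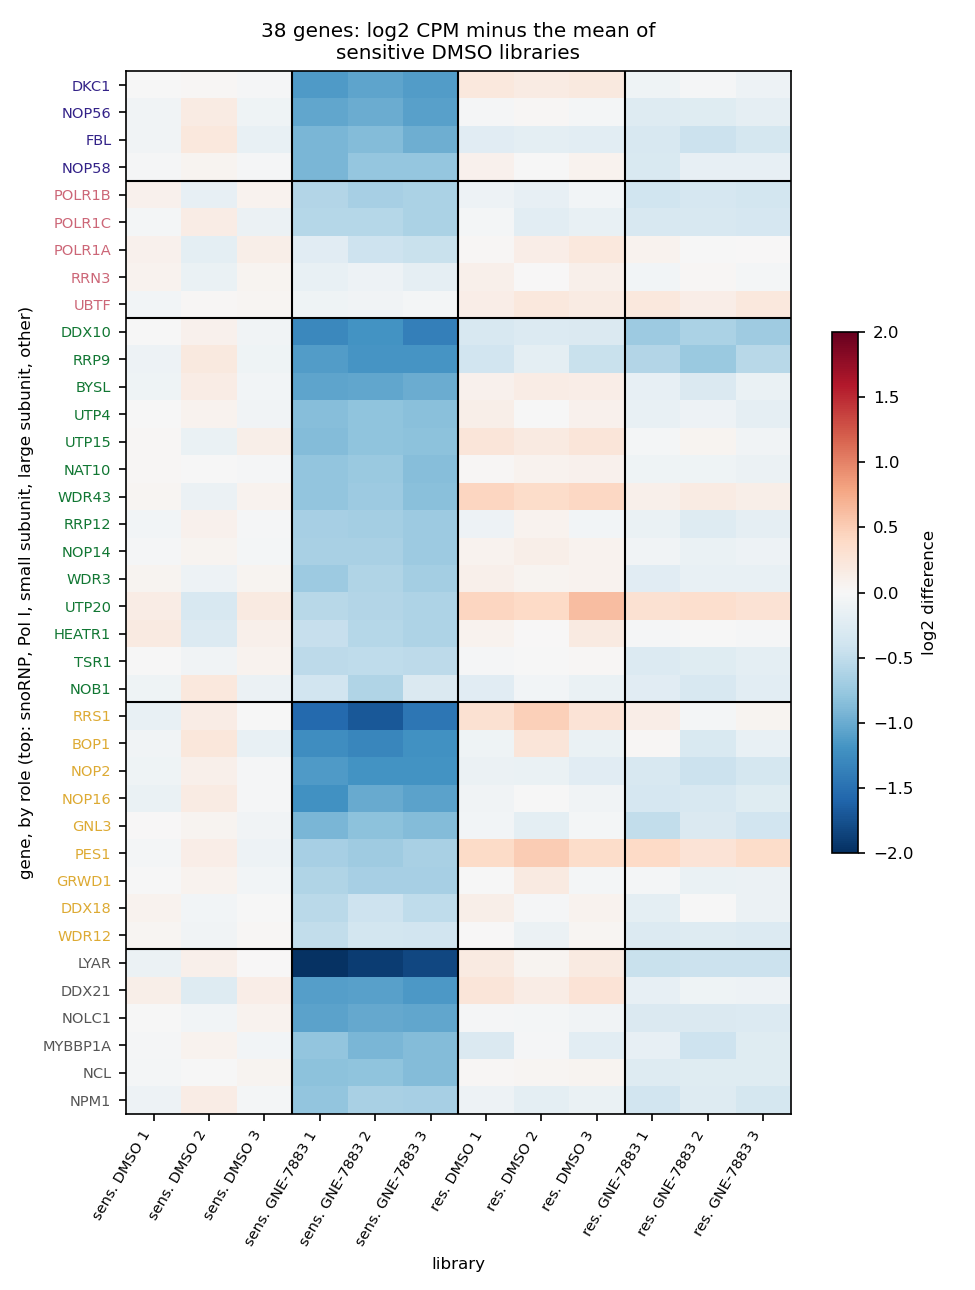
Heat map of the 38 genes (one line each, grouped by role) in the 12 libraries, as log2 CPM minus the mean of the sensitive DMSO libraries, with blue lower and red higher. The 3 sensitive GNE-7883 columns are blue in every role, with RRN3 and UBTF near 0, and the resistant GNE-7883 columns are paler.

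All 4 snoRNP genes fell, with a median log2 fold change of -0.99. FBL (ENSG00000105202; GRCh38 chr19:39834458-39846414, minus strand), the methyltransferase of the box C/D particles, gave 170.0, 208 and 162 CPM in sensitive DMSO replicates 1 to 3 and 94.5, 98.5 and 91.1 CPM in sensitive GNE-7883. All GNE-7883 libraries of FBL were below all DMSO libraries, and DMSO replicate 2 was the highest. Its log2 fold change was -0.93 ± 0.077 (SE), a 1.90-fold lower level (edgeR adjusted p = 4.52e-08). DKC1 (dyskerin), the pseudouridine synthase of the box H/ACA particles, gave 235, 239.6 and 233 CPM in DMSO and 108, 114 and 109 CPM in GNE-7883. Its groups did not overlap, and the log2 fold change was -1.097 ± 0.048 (edgeR adjusted p = 3.04e-11). NOP56 and NOP58, the paired core proteins of the box C/D particles, changed by -1.05 and -0.82 on the log2 scale. Both passed the test.

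Of the 5 genes of RNA polymerase I transcription 3 fell, and the median of -0.36 was the nearest to 0 of the 5 roles. UBTF (ENSG00000108312; chr17:44205033-44221626, minus strand), which binds the ribosomal DNA promoter and had the highest RPKM of this group, gave 108, 114 and 115 CPM in DMSO and 106, 107 and 109 CPM in GNE-7883. The UBTF groups overlapped, since the lowest DMSO library was below the highest GNE-7883 library. The log2 fold change of UBTF was -0.06 ± 0.051 (edgeR adjusted p = 0.289). RRN3, which recruits the polymerase to that promoter, did not pass either, with a log2 fold change of -0.14 ± 0.062 (edgeR adjusted p = 0.0562). RRN3 has 2 named pseudogenes, so reads could be split between copies. The polymerase subunits POLR1A, POLR1B and POLR1C fell by 0.36, 0.63 and 0.60 on the log2 scale, and POLR1C is also a subunit of RNA polymerase III.

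All 14 small-subunit genes fell, with a median of -0.74, and 11 of them by at least 1.5-fold. DDX10 (ENSG00000178105; chr11:108665025-108940930, plus strand), a DEAD-box helicase, gave 48.4, 51.7 and 46.7 CPM in DMSO and 20.01, 21.3 and 19.1 CPM in GNE-7883. Each GNE-7883 library of DDX10 lay far below each DMSO library. The log2 fold change was -1.28 ± 0.063, a 2.43-fold lower level (edgeR adjusted p = 1.09e-10). RRP9, a protein of the U3 snoRNP that guides early cleavage, gave 43.7, 54.1 and 44.3 CPM in DMSO and 21.8, 20.8 and 20.8 CPM in GNE-7883. The groups of RRP9 did not overlap, with DMSO replicate 2 again highest, and the log2 fold change was -1.16 ± 0.090 (edgeR adjusted p = 1.97e-08). WDR43, a subunit of the UTP-A complex that couples processing to transcription and the member of this group with the highest RPKM, gave 114, 102 and 116 CPM in DMSO and 63.6, 66.6 and 61.8 CPM in GNE-7883. WDR43 replicate 2 was the lowest DMSO library yet still above all GNE-7883 libraries, and the log2 fold change was -0.79 ± 0.059 (edgeR adjusted p = 1.34e-08).

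The other UTP-A genes UTP4, UTP15 and HEATR1 fell by 0.83, 0.83 and 0.57 on the log2 scale. BYSL (bystin), a late assembly factor, gave 38.1, 45.2 and 39.0 CPM in DMSO and 19.6, 19.7 and 20.4 CPM in GNE-7883, again without overlap, a log2 fold change of -1.03 ± 0.072. NAT10, which acetylates the small-subunit rRNA, fell by 0.79, and RRP12, NOP14 and WDR3 by 0.69, 0.68 and 0.67. UTP20, a large scaffold protein, gave 67.9, 48.8 and 68.8 CPM in DMSO and 41.7, 40.9 and 39.7 CPM in GNE-7883. DMSO replicate 2 of UTP20 was closer to the GNE-7883 libraries than to its own group, and the groups still did not overlap; the log2 fold change was -0.60 ± 0.10 (edgeR adjusted p = 0.000108). The smallest changes of the group were those of TSR1, a late factor related to GTPases, at -0.52, and NOB1, the endonuclease that trims the 3′ end of the small-subunit rRNA, at -0.42. Both passed the test without reaching 1.5-fold.

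All 9 large-subunit genes fell, with a median of -0.87. RRS1, an assembly factor of the particle that carries the smallest rRNA, gave 19.7, 24.4 and 21.8 CPM in DMSO and 7.46, 6.77 and 8.06 CPM in GNE-7883. The lowest DMSO library of RRS1 was replicate 1, and it was still well above the highest GNE-7883 library. The log2 fold change was -1.56 ± 0.098, a 2.95-fold lower level (edgeR adjusted p = 1.66e-09). BOP1, PES1 and WDR12 form a complex needed to process the large-subunit rRNA, and all 3 fell. BOP1 gave 52.1, 64.0 and 49.8 CPM in DMSO and 23.1, 22.2 and 23.8 CPM in GNE-7883, a log2 fold change of -1.26 ± 0.11 (edgeR adjusted p = 1.18e-07). PES1, with the highest RPKM of the group, gave 98.4, 111 and 94.0 CPM in DMSO and 63.9, 61.8 and 64.6 CPM in GNE-7883, a log2 fold change of -0.67 ± 0.068. The groups of BOP1 and of PES1 did not overlap. WDR12 fell by 0.42 on the log2 scale.

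NOP2 (ENSG00000111641; chr12:6556863-6568691, minus strand), an rRNA methyltransferase, gave 127, 144 and 133 CPM in DMSO and 61.5, 58.7 and 59.1 CPM in GNE-7883. Its groups were far apart, and the log2 fold change was -1.17 ± 0.060 (edgeR adjusted p = 1.55e-10). Since 54.4% of the NOP2 exon bases are shared with another annotated gene on the same strand, its counts can be split or ambiguous. GNL3 (nucleostemin) gave 56.8, 58.6 and 53.6 CPM in DMSO and 29.7, 31.8 and 30.7 CPM in GNE-7883, a log2 fold change of -0.87 ± 0.068. The GNL3 groups did not overlap. NOP16 fell by 1.101, GRWD1, a histone-binding protein, by 0.65 and the helicase gene DDX18 by 0.49 on the log2 scale.

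All 6 genes of nucleolar chaperones and other nucleolar proteins fell by at least 1.5-fold, with a median of -0.95. LYAR (ENSG00000145220; GRCh38 chr4:4267701-4290169, minus strand), a zinc finger protein of the nucleolus, had the largest change of the 38 genes. It gave 27.8, 32.2 and 30.2 CPM in DMSO and 7.65, 8.07 and 8.46 CPM in GNE-7883. The GNE-7883 libraries of LYAR lay close together and far below all DMSO libraries. The log2 fold change was -1.90 ± 0.076, a 3.73-fold lower level (edgeR adjusted p = 9.83e-12). NCL (ENSG00000115053, chr2:231453531-231483641, minus strand) had the highest RPKM listed for the 38 genes. It gave 1034, 1049 and 1099 CPM in DMSO and 602, 609 and 584 CPM in GNE-7883. The NCL groups did not overlap, and the log2 fold change was -0.83 ± 0.044 (edgeR adjusted p = 2.39e-10). DDX21, a helicase at sites of ribosomal RNA synthesis and processing, gave 428, 329.8 and 429.9 CPM in DMSO and 183, 185 and 178 CPM in GNE-7883. Replicate 2 was the lowest DMSO library of DDX21, and all DMSO libraries were above all GNE-7883 libraries, with a log2 fold change of -1.12 ± 0.081. NOLC1, a chaperone of snoRNPs, fell by 1.04, MYBBP1A by 0.86 and NPM1 (nucleophosmin) by 0.70 on the log2 scale. NPM1 has 45 named pseudogenes, so its counts, like those of EEF1A1, are uncertain.

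**Figure D2:**
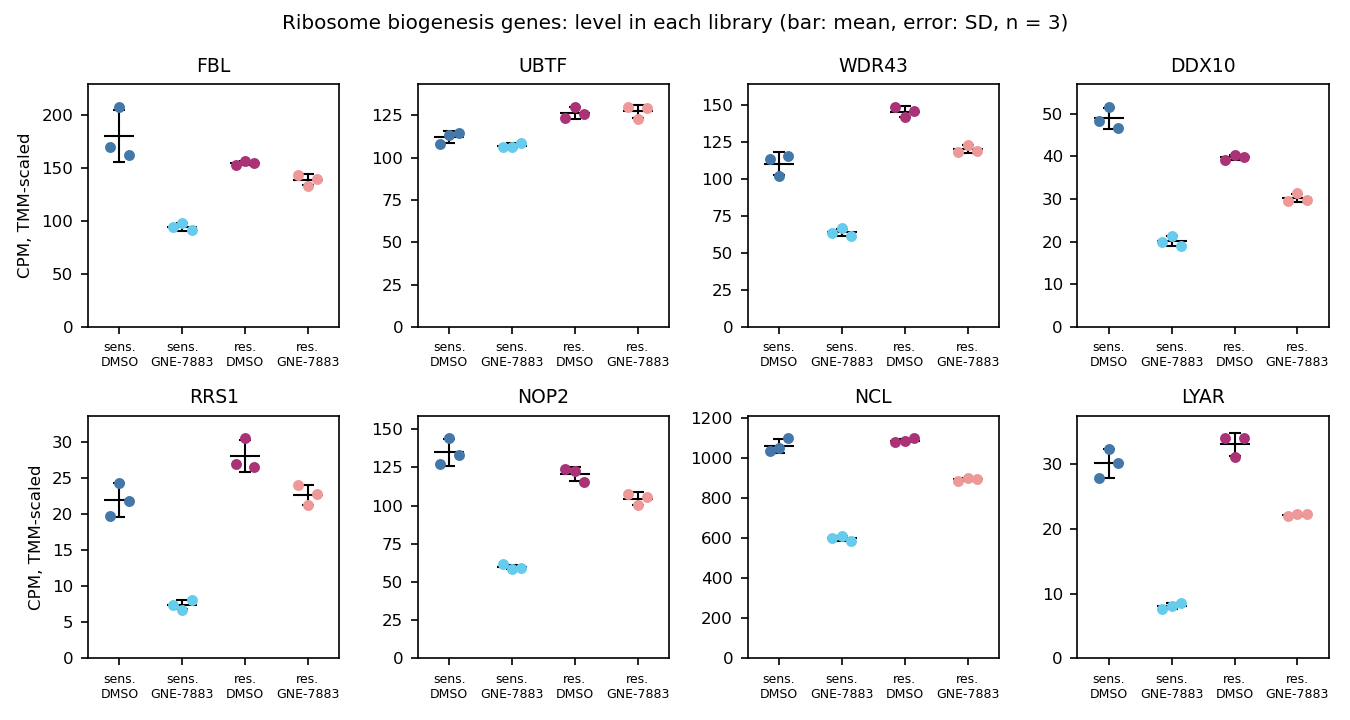
TMM-scaled CPM of 8 genes in each library (points), with the mean (bar) and SD (error, n = 3) of each group; every axis starts at 0. Sensitive GNE-7883 libraries are the lowest of FBL, WDR43, DDX10, RRS1, NOP2, NCL and LYAR, and UBTF shows its lowest libraries there too but with overlap with sensitive DMSO.

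These falls held under every alternative processing that was run: the 36 genes stayed called under all of them. Without sensitive DMSO replicate 2, 37 genes were called lower, and over all genes 5140 in place of 5116. The share of counts on mitochondrial transcripts moved with this comparison, at 0.522 to 0.622% in sensitive DMSO and 0.954 to 1.09% in sensitive GNE-7883, and its part in the result was not tested.

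Genes of the same process outside the 38 moved the same way in sensitive cells, read against the 28.4% of all genes that were called lower. Of 44 other small-subunit factors, 37 fell and none rose (median -0.56), among them IMP4, NOL6 and LTV1 at -1.12, -1.09 and -0.91. Of 50 other large-subunit factors, 44 fell and 1 rose (median -0.52); EBNA1BP2, MRTO4 and URB2 changed by -1.61, -1.23 and -1.19, and the helicase gene DDX24 rose by 0.21. Of 12 other snoRNP and assembly genes, 8 fell (median -0.38), led by the ATPases RUVBL1 and RUVBL2 at -1.16 and -1.12 and by NHP2 at -0.97. Of 12 other genes of RNA polymerase I transcription, 8 fell (median -0.53), with POLR1G, POLR1E and TCOF1 at -1.23, -1.21 and -1.11. The RNA exosome, which trims precursor RNA, had 13 of 14 genes lower (median -0.56), led by MPHOSPH6 at -1.29. RNA polymerase III, which makes the smallest rRNA and transfer RNAs, had 12 of 21 genes lower (median -0.18), with POLR3G at -1.65 and POLR3K at -1.16.

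The genes for the ribosomal proteins had medians nearer 0 than the 38 genes in sensitive cells. Of 79 cytosolic ribosomal protein genes, 34 fell and 2 rose (RPL15 and RPS23, by 0.25 and 0.32), the median was -0.20, and 4 fell by at least 1.5-fold, with RPS26, RPL9 and RPL7 at -0.85, -0.75 and -0.69. As a share of all counts they took 2.167, 2.749 and 2.109% in sensitive DMSO replicates 1 to 3 and 2.01 to 2.11% in sensitive GNE-7883. These ranges overlap, and the highest share was that of replicate 2, which stood apart over all genes. How many of the 34 calls hold without replicate 2 was not tested. Many of these genes have processed pseudogenes, which makes single values uncertain, and 3 of the 79 had a mean under 1 CPM over the libraries. Of 78 mitochondrial ribosomal protein genes, which act outside the nucleolus, 56 fell and none rose (median -0.40), with MRPL3 at -0.94. Proliferation genes moved with the 38 genes: 14 of 14 fell (median -1.09), with CCNA2 at -1.55, CCNB1 at -1.53 and RRM2 at -1.40, and their summed level was 2698 to 2829 CPM in sensitive DMSO and 1275 to 1297 CPM in sensitive GNE-7883. The part of proliferation in the fall of the 38 genes was not tested.

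**Figure D3:**
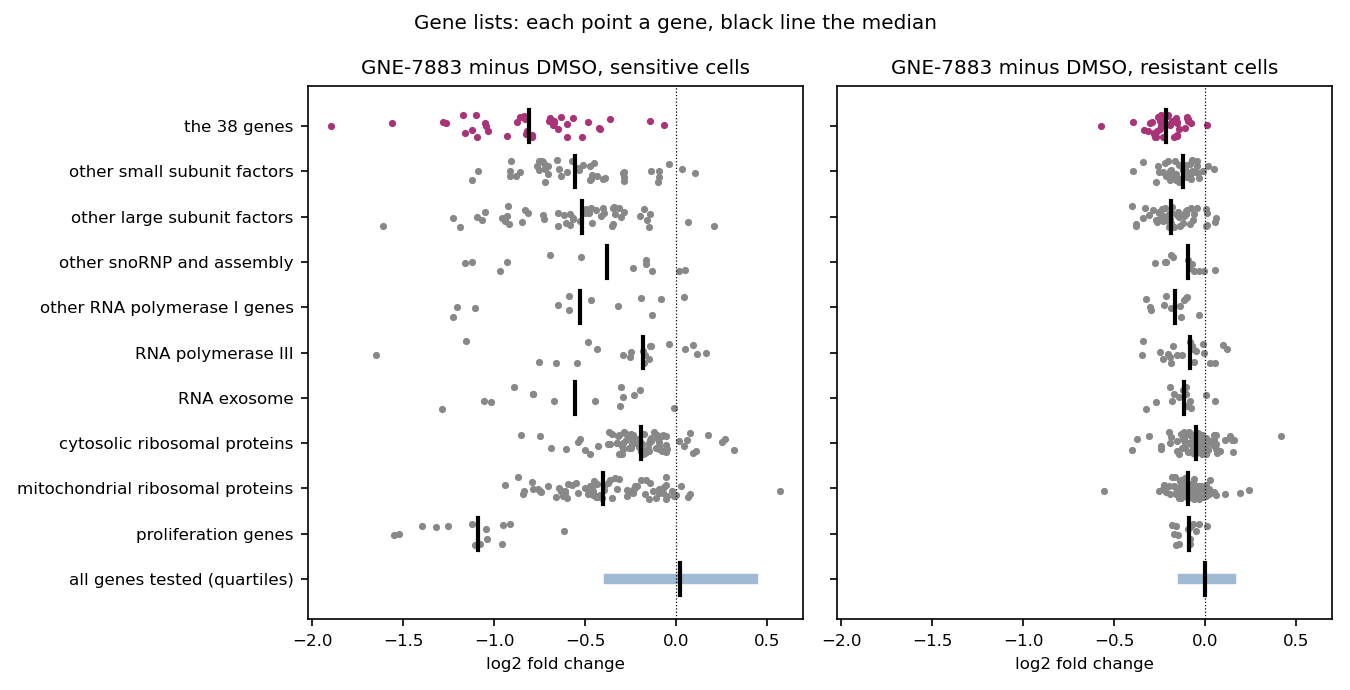
Log2 fold changes of GNE-7883 against DMSO in sensitive (left) and resistant cells (right), each point a gene of the list named at the left, the black line its median, the blue bar the quartiles of all genes tested. In sensitive cells the median of the 38 genes is -0.81 and that of cytosolic ribosomal proteins -0.20, and in resistant cells these are -0.22 and -0.05.

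Promoters of the 38 genes were read because the genes moved together. RefSeq promoter windows (GRCh38.p14, whose primary chromosomes share coordinates with the GRCh38.p10 build of the files) matched 32 of the 38 genes, with 39 windows. The 250 bases before each start were searched on both strands for the E-box CACGTG, which MYC and MAX bind, for the TEAD core GGAATG and for the ETS core CCGGAAG, which shares the letters GGAA with the TEAD core. The E-box was in 5 of 39 windows (12.8%), those of DDX21, LYAR, NAT10, UTP20 and UTP4, against 8% of the 16975 windows of genes tested. The TEAD core was in 4 of 39 (10.3%), those of BYSL, HEATR1, LYAR and NPM1, against 10% of windows of genes tested. The LYAR window with this core differs from the LYAR window with the E-box. The HEATR1 and NPM1 windows with the TEAD core hold no annotated exon bases. The ETS core was in 12 of 39 windows (30.8%), against 13.1% of windows of genes tested and 29.5% of those of cytosolic ribosomal proteins. Most of the 39 windows hold annotated exon bases. All 250 bases are exonic in those of BYSL, NOP16, NOP2, NOP56, POLR1A, TSR1, UTP15 and WDR12. The same holds for the POLR1B window at chr2:112542215-112542464. These shares therefore cover transcribed sequence too. Of the windows with an E-box, only that of UTP20 holds no exon bases. The stretches that follow lie before the start, hold no annotated exon and are written on the strand of the gene, with the matched motif in capitals. UTP20 (chr12:101279855-101280104, plus strand) shows an E-box close to the start, RRP9 (chr3:51941942-51942154, minus strand) and FBL (chr19:39846415-39846629, minus strand) each an ETS core, and DDX10 (chr11:108664819-108665024, plus strand), among the genes with the largest falls, none of these motifs in this stretch.
UTP20: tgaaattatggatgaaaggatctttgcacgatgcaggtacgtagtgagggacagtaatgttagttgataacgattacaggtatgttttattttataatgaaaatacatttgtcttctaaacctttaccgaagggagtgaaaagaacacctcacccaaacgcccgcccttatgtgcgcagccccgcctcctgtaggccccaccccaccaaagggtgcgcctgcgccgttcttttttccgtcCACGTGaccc
RRP9: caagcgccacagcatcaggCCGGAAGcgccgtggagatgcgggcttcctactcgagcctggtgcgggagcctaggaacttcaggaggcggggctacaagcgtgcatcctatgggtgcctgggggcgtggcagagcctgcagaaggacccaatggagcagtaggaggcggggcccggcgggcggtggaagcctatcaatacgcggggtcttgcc
FBL: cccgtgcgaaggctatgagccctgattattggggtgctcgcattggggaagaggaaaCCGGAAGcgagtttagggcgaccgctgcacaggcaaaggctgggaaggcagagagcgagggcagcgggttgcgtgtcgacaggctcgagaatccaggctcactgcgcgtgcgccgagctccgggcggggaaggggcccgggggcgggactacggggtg
DDX10: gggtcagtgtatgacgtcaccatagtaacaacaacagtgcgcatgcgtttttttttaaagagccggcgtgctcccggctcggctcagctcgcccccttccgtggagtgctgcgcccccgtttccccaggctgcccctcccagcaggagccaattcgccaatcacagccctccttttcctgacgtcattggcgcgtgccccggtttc
A match is a description of letters, not a site, and no match says only that these letters are not in the window.

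GNE-7883 against DMSO in resistant cells asks whether the derived line still moved these genes. Of the 38 genes, 20 fell and none rose (edgeR, adjusted p under 0.05), where 3.97% of all genes tested were called lower, 5.25% higher and 9.22% in either direction. The median log2 fold change was -0.22, against -0.003 over all genes tested, and 37 of 38 values were below 0. None reached 1.5-fold, which 0.715% of all genes tested did in the lower direction. The 38 genes took 0.509, 0.505 and 0.509% of counts in resistant DMSO and 0.431, 0.439 and 0.435% in resistant GNE-7883. In 29 genes the GNE-7883 libraries were all below the DMSO libraries, against 16.2% of all genes tested.

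LYAR again had the largest change. It gave 34.0, 31.0 and 34.0 CPM in resistant DMSO and 22.0, 22.3 and 22.2 CPM in resistant GNE-7883. The groups of LYAR did not overlap, and the log2 fold change was -0.58 ± 0.069, a 1.49-fold lower level (edgeR adjusted p = 6.63e-05). DDX10 gave 39.3, 40.3 and 39.8 CPM in DMSO and 29.5, 31.4 and 29.8 CPM in GNE-7883, without overlap, a log2 fold change of -0.40 ± 0.061 (edgeR adjusted p = 0.000643). DDX21 gave 467, 437 and 473 CPM in DMSO and 353, 372 and 366 CPM in GNE-7883, also without overlap, at -0.34 ± 0.080 (edgeR adjusted p = 0.0146). BYSL, the late small-subunit factor, gave 43.0, 45.2 and 44.3 CPM in DMSO and 36.4, 33.3 and 37.0 CPM in GNE-7883. All GNE-7883 libraries of BYSL were lower, and the log2 fold change was -0.31 ± 0.070 (edgeR adjusted p = 0.00999). RRS1 gave 26.9, 30.6 and 26.6 CPM in DMSO and 24.1, 21.3 and 22.8 CPM in GNE-7883, at -0.31 ± 0.088 (edgeR adjusted p = 0.0407). GNL3 gave 54.2, 49.1 and 55.1 CPM in DMSO and 40.1, 45.9 and 43.4 CPM in GNE-7883, at -0.29 ± 0.067 (edgeR adjusted p = 0.0119). The groups of RRS1 and GNL3 did not overlap.

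Among the genes with the highest RPKM of each role, NCL gave 1078, 1085 and 1097 CPM in resistant DMSO and 886, 901 and 895 CPM in resistant GNE-7883. That separation came with a log2 fold change of -0.28 ± 0.044 (edgeR adjusted p = 0.0006). WDR43 gave 149, 142 and 147 CPM in DMSO and 118, 123 and 119 CPM in GNE-7883, at -0.28 ± 0.058 (edgeR adjusted p = 0.00635). FBL gave 153, 156 and 155 CPM in DMSO and 144, 133 and 139.7 CPM in GNE-7883. The FBL libraries did not overlap, but the log2 fold change of -0.16 ± 0.076 did not pass (edgeR adjusted p = 0.245). PES1 gave 131, 144 and 131 CPM in DMSO and 133, 122 and 129.6 CPM in GNE-7883, with overlapping groups, at -0.08 ± 0.067 (edgeR adjusted p = 0.547). UBTF gave 123, 130.3 and 126 CPM in DMSO and 130.0, 123 and 129.6 CPM in GNE-7883, again overlapping, at 0.01 ± 0.050 (edgeR adjusted p = 0.928).

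By role, 3 of 4 snoRNP genes, 1 of 5 RNA polymerase I genes (POLR1B at -0.26), 8 of 14 small-subunit genes, 4 of 9 large-subunit genes and 4 of 6 chaperones and other proteins fell in resistant cells. The 18 genes that did not pass had log2 fold changes from -0.28 to 0.01. How many of the 38 were called rested on single libraries. Leaving out replicate 1 or 3 of the resistant DMSO group gave 6 and 7 genes, leaving out replicate 1 or 3 of the resistant GNE-7883 group gave 6 and 8, and leaving out sensitive DMSO replicate 2 gave 28. The calls over all genes moved with these counts: against 716 called lower with all libraries, 312, 350, 342 and 304 were called lower in the first 4 of these fits and 1411 in the last. The 6 genes called under all alternatives run were LYAR, DDX10, BYSL, DKC1, NCL and NOLC1, while the median of the 38 stayed between -0.23 and -0.21 with any library left out.

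Genes of the same process outside the 38 also lay below 0 in resistant cells, where 3.97% of all genes were called lower. Of the other large-subunit factors 14 of 50 fell, with 44 of 50 values below 0 and a median of -0.19 beside the -0.22 of the 38 genes. Among them were GTPBP4, RRP15 and EBNA1BP2 at -0.40, -0.38 and -0.38. Of the other small-subunit factors 8 of 44 fell (median -0.12), with LTV1 at -0.40 and RIOK1 at -0.34. Of the 12 other genes of RNA polymerase I transcription 2 fell, and all 12 values were below 0 (median -0.16). The 8 mesothelial markers went the other way, with 4 called higher and a median of 0.25. Of the cytosolic ribosomal protein genes none of 79 was called in either direction in edgeR (median -0.05), with 3 lower at an unadjusted p under 0.05. None of the 14 proliferation genes was called either (edgeR, median -0.09), with 5 lower at an unadjusted p under 0.05, and their summed level was 2948 to 3092 CPM in DMSO and 2744 to 2858 CPM in GNE-7883. The mitochondrial share of counts was 0.561 to 0.685% in resistant DMSO and 0.614 to 0.693% in resistant GNE-7883.

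The difference of the GNE-7883 responses tests directly whether the lines responded unequally. It is the response of resistant cells minus that of sensitive cells, so a positive value means a smaller fall in resistant cells for genes that fell in both. Of the 38 genes, 33 were called higher and none lower (edgeR), 18 of them at 1.5-fold or more, where 19% of all genes tested were called higher, 16.7% lower and 35.7% in either direction. At 1.5-fold or more, 10.1% of all genes tested were higher. The median difference of the 38 was 0.57, against -0.01 over all genes tested. In all 38 genes the absolute change was larger in sensitive than in resistant cells, a count not taken over all genes. Changes of all genes tested were also wider in sensitive cells, with quartiles of -0.37 and 0.42 against -0.12 and 0.14 in resistant cells. LYAR had the largest difference at 1.32 ± 0.10 (edgeR adjusted p = 9.16e-08), and RRS1 followed at 1.26 ± 0.13. BOP1 differed by 1.11 ± 0.16, NOP2 by 0.97 ± 0.084, DDX10 by 0.89 ± 0.088 and RRP9 by 0.88 ± 0.13. The 5 genes that did not pass were POLR1A, RRN3 and UBTF of RNA polymerase I transcription, NOB1 and WDR12, with differences of 0.05 to 0.31. By role, 2 of 5 RNA polymerase I genes were called, and 4 of 4 snoRNP, 13 of 14 small-subunit, 8 of 9 large-subunit and 6 of 6 other genes. UTP20, at 0.43 (edgeR adjusted p = 0.0287), was the only one of the 33 that lost its call under some alternative. Without sensitive DMSO replicate 2, 34 genes were called higher, and over all genes 3788 in place of 3435.

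**Figure D4:**
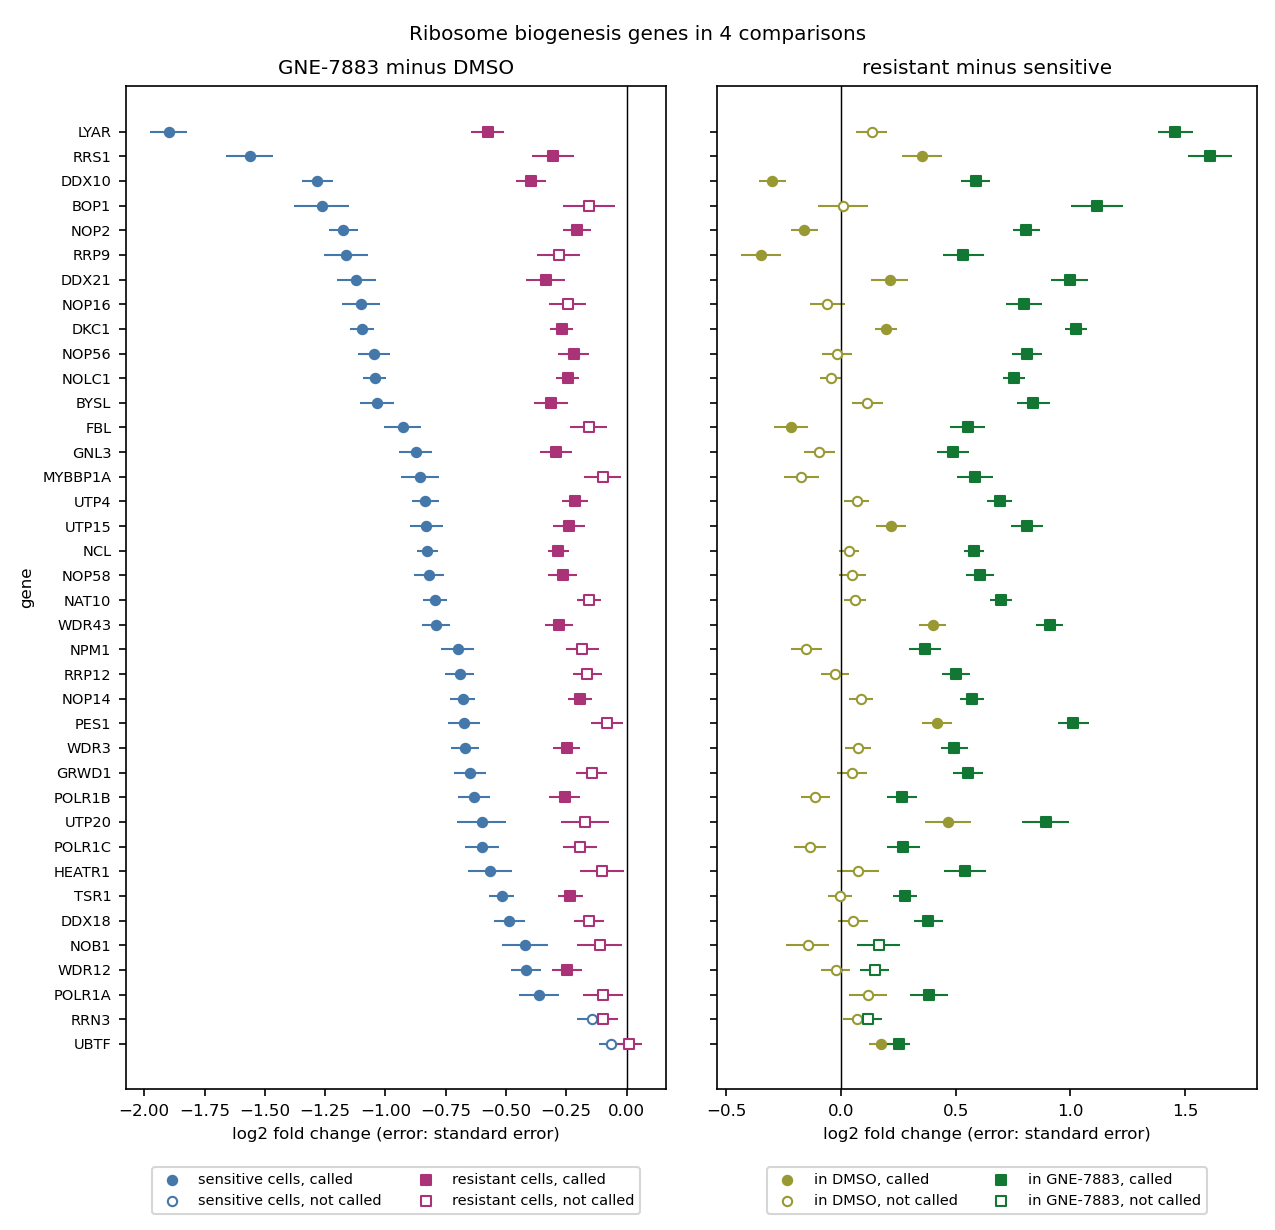
Log2 fold changes with standard errors of the 38 genes, sorted by the change in sensitive cells, for GNE-7883 minus DMSO (left) and resistant minus sensitive (right); filled symbols passed the test and open symbols did not. On the left the resistant values lie between -0.58 and 0.01 and the sensitive values between -1.90 and -0.06; on the right the values in GNE-7883 lie to the right of those in DMSO for all genes.

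MYC itself was lower in sensitive cells under GNE-7883. It gave 194.9, 215.8 and 203.8 CPM in sensitive DMSO and 120.5, 121.2 and 119.9 CPM in sensitive GNE-7883, without overlap, a log2 fold change of -0.77 ± 0.056. In resistant cells its mean was 222 CPM in DMSO and 192 CPM in GNE-7883, a log2 fold change of -0.21 ± 0.055 (edgeR adjusted p = 0.0239). The call of MYC in resistant cells was lost under 5 of 20 alternatives: with no filter on low counts (edgeR adjusted p = 0.054) and without replicate 1 or 2 of resistant DMSO or replicate 2 or 3 of resistant GNE-7883 (0.0692 to 0.0988). The responses differed by 0.55 on the log2 scale and passed the test.

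Resistant against sensitive cells in DMSO compares the lines under the vehicle. As the duration of that incubation is not known, neither is how long the resistant cells had been without a TEAD inhibitor. The 38 genes differed in both directions: 8 were higher and 4 lower in resistant cells (edgeR), where 24.2% of all genes tested were called higher, 24.4% lower and 48.7% in either direction. None of the 38 differed by 1.5-fold, whereas 9.71% of all genes tested were higher and 12.4% lower by at least that. The median was 0.05, against -0.002 over all genes tested. With library totals in place of TMM scaling, which moved the median of all genes to 0.07, 13 were higher and 2 lower, and over all genes tested 5359 were higher and 3654 lower in place of 4367 and 4408. Without sensitive DMSO replicate 2, 10 of the 38 were higher and 3 lower, and over all genes 4633 and 4426. UTP20 had the largest positive difference between the lines, with 82.1, 80.7 and 93.2 CPM in resistant DMSO against 67.9, 48.8 and 68.8 CPM in sensitive DMSO. The libraries of UTP20 did not overlap and the log2 fold change was 0.46 ± 0.10 (edgeR adjusted p = 0.00115). PES1 at 0.42 ± 0.067, WDR43 at 0.40 ± 0.058 and RRS1 at 0.35 ± 0.088 were also higher, and so, by less, were UTP15, DDX21, DKC1 and UBTF. In PES1, WDR43 and RRS1 every resistant DMSO library was above every sensitive DMSO library.

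RRP9 was lower in the resistant line, with 36.0, 40.9 and 34.5 CPM in resistant DMSO against 43.7, 54.1 and 44.3 CPM in sensitive DMSO. No RRP9 libraries overlapped, and the log2 fold change was -0.35 ± 0.087 (edgeR adjusted p = 0.00349). DDX10 at -0.30 ± 0.061, FBL at -0.22 ± 0.076 and NOP2 at -0.16 ± 0.059 were the other genes called lower. Calls of DDX21, FBL, NOP2, UBTF and UTP15 were lost under some alternative. The 26 genes that did not pass had values from -0.17 to 0.13. Beside them, the cytosolic ribosomal protein genes were lower in the resistant line in 26 of 79 and higher in 2 (median -0.19). On unscaled library totals these genes took 2.167, 2.749 and 2.109% of counts in sensitive DMSO replicates 1 to 3. In resistant DMSO they took 2.135 to 2.285%, below replicate 2 but overlapping the span of replicates 1 and 3. How many of these calls hold without replicate 2 was not tested. The other genes of RNA polymerase I transcription were higher in 7 of 12 and lower in 1 (median 0.18). MYC did not pass (0.12, edgeR adjusted p = 0.086). The summed mesothelial markers were lower in the resistant groups, as given above. Of the 8 markers, 6 were called lower and 1 higher in resistant cells in DMSO, and the same counts held in GNE-7883 (edgeR). The part of these markers in the differences between the lines was not tested.

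Resistant against sensitive cells in GNE-7883 compares the lines while both were exposed. Of the 38 genes, 35 were higher in resistant cells and none lower (edgeR), where 30.7% of all genes tested were called higher, 31.1% lower and 61.9% in either direction. Of these, 18 were higher by at least 1.5-fold, against 16.7% of all genes tested. Sensitive DMSO replicate 2 enters here only through the shared spread, the scaling and the filter on low counts. Without it 38 were higher, and over all genes 6093 of 18358 tested in place of 5544 of 18035. The median log2 fold change was 0.58, against -0.01 over all genes tested. This comparison shares its sensitive GNE-7883 libraries with the comparison within sensitive cells, and its resistant GNE-7883 libraries with that within resistant cells. RRS1 had the largest difference: 24.1, 21.3 and 22.8 CPM in resistant cells against 7.46, 6.77 and 8.06 CPM in sensitive cells. No sensitive library of RRS1 came near a resistant one, with a log2 fold change of 1.61 ± 0.098 and a 3.05-fold higher level (edgeR adjusted p = 7.01e-10). LYAR was higher by 1.46 ± 0.076 (edgeR adjusted p = 1.08e-10).

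BOP1 gave 55.8, 44.5 and 49.5 CPM in resistant GNE-7883 against 23.1, 22.2 and 23.8 CPM in sensitive GNE-7883, a log2 fold change of 1.12 ± 0.11 (edgeR adjusted p = 3.59e-07). Its resistant DMSO libraries gave 51.6, 65.0 and 50.1 CPM, which overlapped with the resistant GNE-7883 libraries. DKC1 gave 222, 231 and 219.7 CPM in resistant GNE-7883 against 108, 114 and 109 CPM, at 1.02 ± 0.048, and it gave 274, 265.1 and 271 CPM in resistant DMSO. PES1 was higher by 1.01 ± 0.068 and DDX21 by 0.997 ± 0.081. In BOP1, DKC1, PES1 and DDX21 no library of the sensitive group reached the lowest of the resistant group. The 3 genes that did not pass were RRN3, NOB1 and WDR12, at 0.12 to 0.16. In 6 of the 38 genes the resistant GNE-7883 mean was at or above the sensitive DMSO mean, a count not taken over all genes. In 22 of the 38 the resistant DMSO level was above that of sensitive DMSO, where 8990 of the 18035 genes tested were. Among the other lists 38 of 44 small-subunit and 37 of 50 large-subunit factors were higher in resistant cells, and of the 79 cytosolic ribosomal protein genes 6 were higher and 17 lower (median -0.02). All 14 proliferation genes were higher (median 1.14).

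Annotation sets some limits on single genes. The counting strand is not stated and the library kit does not mark strand, so reads of overlapping genes on opposite strands cannot be told apart. In GENCODE 29, 18 of the 38 genes share exon bases with another gene. After NOP2 the largest shares were those of HEATR1 (23.2%), TSR1 (20.8%), NOB1 (20.2%), NOP16 (20%), POLR1C (18.2%), WDR3 and NOP14 (17.1% each) and RRS1 (11.4%). Named pseudogenes exist for 8 of the 38 genes, among them LYAR, DDX10, PES1 and NCL. The 38 genes lie on 16 chromosomes, and 25 snoRNA genes lie within 7 of them.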

How the data were processed

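The 12 libraries came from a TruSeq version 2 RNA kit and were read single-end over 50 bases, per the labels' protocols. Per the submitters' processing notes, GSNAP, limma and GRCh38.p10 were used, with roles not stated; which tool counted, on which annotation and strand, was not given in the sources used here. The authors deposited raw counts per Ensembl gene, with no normalization, and a table of RPKM values; over 12122 genes the RPKM values follow from the deposited counts by a gene factor and the library total.

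Counts were tested with edgeR 4.0.16 in R 4.3.3 (TMM, filterByExpr, quasi-likelihood F-test, a mean for each group, all 12 libraries fitted together with 8 residual degrees of freedom; two-sided, Benjamini-Hochberg over the 18035 genes tested in each of 5 comparisons; called at adjusted p under 0.05, with a second rule of at least 1.5-fold). Levels in CPM are TMM-scaled. Standard errors were taken as |log2 fold change| over the root of the F statistic. Values in every library are given for the gene of highest mean RPKM in each role and for up to 6 called genes of the largest change in each comparison; of other lists, up to 3 called genes. The fit was also run on counts simulated with a single spread for all genes and no deviant library. That run does not bear on the effect of sensitive DMSO replicate 2. Symbols and coordinates came from GENCODE 29 (GRCh38). Alternatives were DESeq2 1.42.0 and its size factors, library totals, other filters, only the groups compared, a replicate block, limma 3.58.1 on log2(RPKM + 0.1), and leaving out each library. With a library left out the filter was run again, so that 18324 to 18561 genes were tested in place of 18035. The 38 genes, the lists and the rules were chosen with earlier results of these data known.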

Additional observations from a re-analysis of the deposited data

Results flagged for a closer look

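The difference of the GNE-7883 responses between the lines, tested with an interaction term in edgeR, was called for 33 of the 38 genes, all with a smaller fall or no fall in resistant cells, where 19% of all genes tested were called higher and 35.7% in either direction. The largest differences, resistant minus sensitive on the log2 scale, were 1.32 for LYAR, 1.26 for RRS1, 1.11 for BOP1, 0.97 for NOP2, 0.89 for DDX10 and 0.88 for RRP9, and MYC differed by 0.55. Only 1 resistant line was profiled, and the drug dose is not given in the sources used here. The gap of a single library to its group was not tested gene by gene, as the groups hold 3 libraries. Sensitive DMSO replicate 2, which stood apart over all genes, is described in the report.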

How the results depend on the processing

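Of the 38 genes, none that was called in a comparison changed direction there under the alternatives run. Genes that were not called were not checked for direction. In sensitive cells 36 genes were called lower under GNE-7883 (36 to 37 with a library left out), the median ran from -0.84 to -0.79 with a library left out and was -0.85 with no filter on low counts. In resistant cells the count lower was 6 to 28 with a library left out (median -0.23 to -0.21) and 23 with DESeq2's Wald test, while over all genes it was 304 to 1411 and 825, against 716. Between the lines in DMSO, library totals gave 13 higher, 2 lower and a median of 0.12, only the groups compared 5 higher and 2 lower, and limma on RPKM 14 higher, 2 lower and a median of 0.12. All genes shifted too, from 4367 higher and 4408 lower to 5359 and 3654 with library totals, 3578 and 3961 with only the groups compared, and 5231 and 3531 with limma. With a library left out the 38 genes gave 6 to 10 higher, 3 to 5 lower and a median of 0.03 to 0.06. Between the lines in GNE-7883 the median was 0.66 with library totals, 0.63 with no filter and 0.65 with limma on RPKM, and 0.56 to 0.61 with a library left out (35 to 38 higher). The median difference of responses was 0.62 with no filter and 0.56 to 0.63 with a library left out (32 to 34 higher). The causes were not tested.

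The groups share replicate numbers, but same-numbered libraries mostly did not deviate together (correlations of -0.12 to 0.18, 1 of 18 over 0.1). The correlation of 0.18 was that of replicate 2 between sensitive DMSO and resistant DMSO. Libraries of unlike numbers gave -0.16 to 0.11. The numbers were not taken as pairs. With a replicate block, 36 genes were lower in sensitive and 16 in resistant cells, 8 were higher and 3 lower between the lines in DMSO, 35 higher in GNE-7883, and 33 differed in response.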
